A study of Mus musculus with 6 samples.

Results

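The genes described here encode protein phosphatase 1 (PP1) and calcineurin, together with the proteins that inhibit and place PP1. They are the 10 genes Ppp1ca, Ppp1cb, Ppp1cc, Ppp1r1a, Ppp1r1b, Ppp1r9a, Ppp1r9b, Ppp3ca, Ppp3cb and Ppp3r1, chosen by name from the 37273 genes annotated on the nuclear chromosomes of mouse build mm9, and all 10 were found. The question asked of them was how much acetylation of lysine 5 of histone H4 (H4K5ac) they carried in the hippocampus, where along each gene, and whether it differed after fear conditioning. The 6 libraries of chromatin were H4K5ac-ChIP, IgG-IP (a precipitation with a non-specific antibody) and input (chromatin with no precipitation), 1 of each for each group. In the fear-conditioned (FC) group, mice received a foot shock in an unfamiliar context on successive days and the hippocampus was taken after a memory test in that context. The context-only control (CON) group differed from it in receiving no shock. All mice of both groups were C57/BL6, without any transgene or deletion named in the labels, and 6 months old by the labels.

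PP1 and calcineurin remove phosphate groups from serine and threonine in proteins, and in neurons they act against the kinases that strengthen synapses. Calcineurin is switched on by calcium and calmodulin. It dephosphorylates inhibitor-1 and DARPP-32, which frees PP1 from inhibition, so that a modest rise in calcium can favour long-term depression. Both phosphatases are known as constraints on learning and memory. H4K5ac is a mark of open chromatin around active genes that bromodomain proteins can bind.

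The libraries held 14549689 to 45673239 reads, with the IgG-IP libraries the smallest. Each group and antibody had 1 library, so no spread between animals could be measured and no test between FC and CON was possible. The intervals given below are exact 95% intervals for read counts; they cover counting error only, and reads amplified by PCR are not independent molecules. In whole hippocampus, fewer cells carrying the mark and less of the mark per cell cannot be told apart. As a description of the tissue, 7 neuronal genes had a median H4K5ac-ChIP over IgG-IP of 0.98 (log2, gene body) in FC and 0.71 in CON. For 7 genes of other tissues it was 0.21 and -0.14. However, 3 of these, Apoa2, Myh6 and Ckm (0.99, 0.98 and 1.11 in FC), lay within the neuronal range of 0.33 to 1.31. In CON the same 3 (0.50, 0.58 and 0.37) also lay within the neuronal range, there 0.27 to 2.08. The lists were chosen with earlier results of these data known and are no independent check. The FC input held relatively more GC-rich DNA than the CON input: for genes with the GC content of Ppp1ca the median FC over CON ratio of input was 0.69 on the log2 scale, and for those with that of Ppp3cb it was -0.72. The part of this difference in the results was not tested, and input values are given beside the FC over CON values of the genes.

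To show the DNA that the promoter values below refer to, the 250 bp before the transcription start site (TSS) are printed 5′ to 3′ on the gene's strand for the PP1 catalytic gene with the most GC boxes (Ppp1ca), for Ppp1r1a, which holds a half-site of the cAMP response element (CRE), for Ppp1r9b, which had the highest promoter signal, and for Ppp3ca. Capitals mark the GC box (GGGCGG) and the CRE half-site (TGACG) on either strand, with overlapping matches counted separately.
Ppp1ca, chr19:4191908-4192157, plus strand: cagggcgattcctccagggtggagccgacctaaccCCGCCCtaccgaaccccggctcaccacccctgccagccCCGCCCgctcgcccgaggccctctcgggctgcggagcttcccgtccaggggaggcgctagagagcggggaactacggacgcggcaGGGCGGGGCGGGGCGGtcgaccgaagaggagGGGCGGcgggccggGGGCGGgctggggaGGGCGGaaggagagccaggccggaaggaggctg
Ppp1r1a, chr15:103368424-103368673, minus strand: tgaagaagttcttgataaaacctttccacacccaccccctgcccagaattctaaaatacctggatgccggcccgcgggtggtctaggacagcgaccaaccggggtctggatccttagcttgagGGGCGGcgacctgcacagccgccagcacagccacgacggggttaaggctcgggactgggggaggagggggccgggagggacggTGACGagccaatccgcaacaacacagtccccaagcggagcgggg
Ppp1r9b, chr11:94852099-94852348, plus strand: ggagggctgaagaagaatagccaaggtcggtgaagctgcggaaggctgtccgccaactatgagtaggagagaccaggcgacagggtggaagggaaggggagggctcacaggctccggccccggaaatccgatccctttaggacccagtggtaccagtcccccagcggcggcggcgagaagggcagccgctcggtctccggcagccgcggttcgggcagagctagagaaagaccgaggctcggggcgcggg
Ppp3ca, chr3:136332838-136333087, plus strand: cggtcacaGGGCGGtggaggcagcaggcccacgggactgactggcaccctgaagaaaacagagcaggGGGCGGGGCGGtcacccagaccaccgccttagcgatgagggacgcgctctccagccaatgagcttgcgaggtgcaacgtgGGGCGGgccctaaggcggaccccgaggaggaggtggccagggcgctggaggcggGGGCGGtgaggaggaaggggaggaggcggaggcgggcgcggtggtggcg
The sequences were read from NCBI build 37 (mm9). A GC box lay in 7 of the 10 windows, against 39.6% of the 22367 protein-coding promoters. Ppp1ca had 8 matches, Ppp1cc 6 and Ppp3ca 5, while Ppp1r1b, Ppp1r9b and Ppp3r1 had none. The CRE half-site lay in 2 windows, those of Ppp1r1a and Ppp3r1, against 19.4% of promoters. The full CRE (TGACGTCA), the TATA box letters TATAAA and the E box CACGTG were in none of the 10 windows, against 1.91%, 12.3% and 6.52% of promoters, and CCAAT was in 2, against 35.0%. The ratio of observed to expected CpG was above the median of all promoters (0.50) in 9 of the 10, from 0.66 in Ppp1r1b to 1.13 in Ppp1cc, and was 0.33 in Ppp1r9a. A match of letters is a description of the sequence and not of a bound factor.

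In the gene body, from TSS to the last annotated end, the densities of H4K5ac-ChIP reads spanned 0.461 to 1.29 RPKM (reads per kilobase and per 1000000 reads of the library) in FC and 0.588 to 1.29 in CON. The median of the 10 genes was 0.809 in FC and 0.866 in CON, and the median of all protein-coding genes was 0.549 and 0.541. The IgG-IP density of the 10 genes was near that of all protein-coding genes (medians of 0.363 and 0.362 in FC, 0.385 and 0.382 in CON). The inhibitor gene Ppp1r1b was highest in both groups and the calcineurin gene Ppp3cb and the PP1 gene Ppp1cb were the 2 lowest in both.

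**Figure D1:**
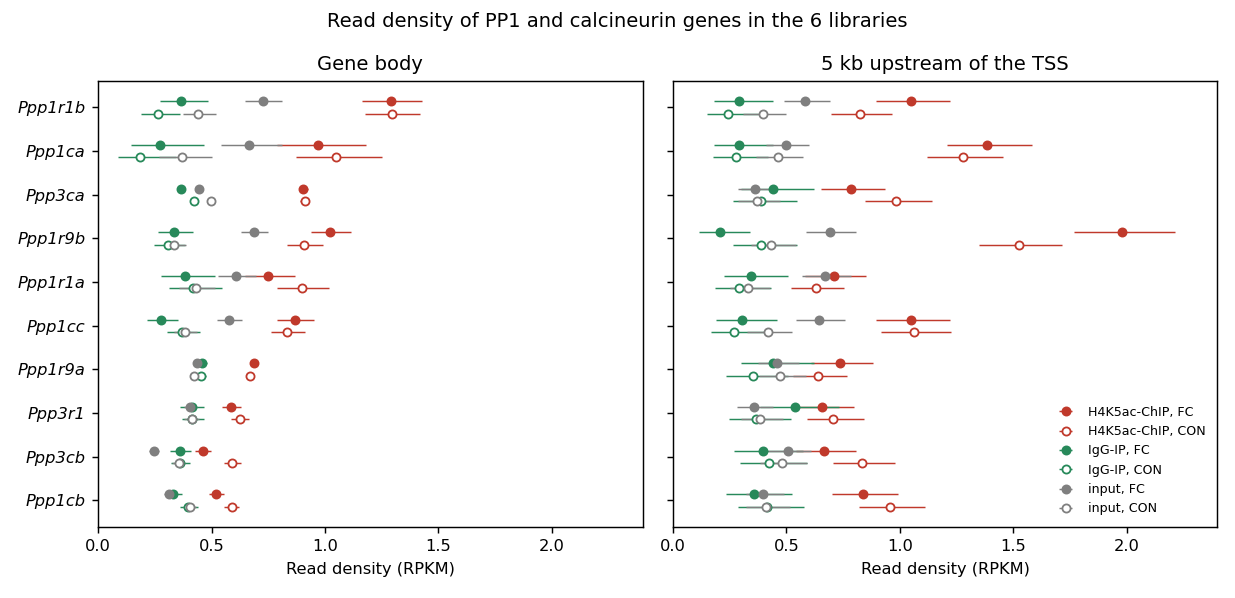
Read density (RPKM, linear axis from 0) of the 10 genes in the gene body (left) and the 5 kb upstream of the TSS (right); filled points are FC, open points CON, colours give the antibody, and bars are exact 95% Poisson intervals from 1 library each. H4K5ac-ChIP lies above IgG-IP for every gene, and the promoter of Ppp1r9b reaches 1.98 RPKM in FC and 1.52 in CON.

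Among the catalytic subunits of PP1, Ppp1ca and Ppp1cc held more H4K5ac-ChIP reads per length than Ppp1cb, but relative to input this was so in CON only. Ppp1ca encodes PP1 alpha in a gene of 3.262 kb on chromosome 19 (4192158 to 4195419). Its gene body held 0.970 RPKM of H4K5ac-ChIP, 0.274 of IgG-IP and 0.664 of input in FC, and 1.05, 0.186 and 0.371 in CON. H4K5ac-ChIP was highest of the antibodies in both groups, but the IgG-IP values rest on 13 and 10 reads. Ppp1cc, which encodes PP1 gamma, the isoform known to be enriched at synapses, lies on chromosome 5 (122608287 to 122625282). It held 0.868, 0.279 and 0.577 RPKM in FC and 0.834, 0.371 and 0.385 in CON, in the same order of libraries. H4K5ac-ChIP was again the highest of the 3 in both groups, 1.50-fold over input in FC. Ppp1cb, for PP1 beta, the isoform of the myosin phosphatase, spans 58.46 kb of chromosome 5 (32761347 to 32819806). Its densities were 0.522, 0.330 and 0.311 RPKM in FC and 0.588, 0.398 and 0.403 in CON. Per length, Ppp1ca exceeded Ppp1cb in H4K5ac-ChIP by 1.86-fold in FC (interval 1.50 to 2.29) and 1.78-fold in CON (1.47 to 2.15), and Ppp1cc exceeded it by 1.66-fold (1.49 to 1.86) and 1.42-fold (1.28 to 1.57). The densities of Ppp1ca and Ppp1cc did not differ beyond counting error in FC (1.12-fold, 0.892 to 1.39), and the interval of their ratio in CON was 1.02 to 1.53. The input ratio of Ppp1ca to Ppp1cb was 2.14 in FC and 0.922 in CON, and that of Ppp1cc to Ppp1cb was 1.85 and 0.955. The order of these genes in H4K5ac-ChIP was thus shared by the input library in FC only. Both FC input ratios were larger than the H4K5ac-ChIP ratios. Over input, the log2 ratio of H4K5ac-ChIP in FC was 0.75 for Ppp1cb, 0.55 for Ppp1ca and 0.59 for Ppp1cc. In CON it was 0.55, 1.50 and 1.12.

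The inhibitors of PP1 are Ppp1r1a (inhibitor-1) and Ppp1r1b (DARPP-32, the dopamine- and cAMP-regulated inhibitor abundant in striatal neurons). Ppp1r1b lies on chromosome 11 (98209718 to 98219110). Its gene body held 1.29 RPKM of H4K5ac-ChIP, 0.366 of IgG-IP and 0.727 of input in FC, and 1.29, 0.265 and 0.441 in CON. These were the highest H4K5ac-ChIP densities among the 10 genes, at percentiles 98.6 and 99.4 of protein-coding genes. A noncoding gene on the other strand, 1700003D09Rik, covers 75.4% of the Ppp1r1b body, and these reads, which carry no strand of transcription, cannot be divided between the genes. Ppp1r1a lies on chromosome 15 (103360710 to 103368423) and held 0.751, 0.383 and 0.607 RPKM in FC and 0.898, 0.417 and 0.431 in CON. In H4K5ac-ChIP, Ppp1r1b exceeded Ppp1r1a by 1.72-fold in FC (1.44 to 2.06) and 1.44-fold in CON (1.23 to 1.69), and neither IgG-IP library showed more reads per length on Ppp1r1b (ratios of 0.955 and 0.635).

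The scaffold genes Ppp1r9a (neurabin) and Ppp1r9b (spinophilin) encode actin-binding proteins that bring PP1 to dendritic spines. Ppp1r9b is a short GC-rich gene (57.2% GC) on chromosome 11 (94852349 to 94868213), and Ppp1r9a spans 262.658 kb of chromosome 6 (4853004 to 5115661) at 41.4% GC. Ppp1r9b held 1.02 RPKM of H4K5ac-ChIP, 0.334 of IgG-IP and 0.687 of input in FC, and 0.908, 0.310 and 0.336 in CON. Ppp1r9a held 0.686, 0.456 and 0.435 RPKM in FC and 0.668, 0.453 and 0.424 in CON, from 5695 and 6308 H4K5ac-ChIP reads. The paralogues stood in opposite orders in the antibody libraries: Ppp1r9b exceeded Ppp1r9a by 1.49-fold (1.36 to 1.63) and 1.36-fold (1.24 to 1.49) in H4K5ac-ChIP, while in IgG-IP it was at 0.731 (0.574 to 0.919) and 0.683 (0.540 to 0.853) of the density of Ppp1r9a. In the input the ratio was 1.58 in FC and 0.792 in CON.

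Of the calcineurin genes, the catalytic subunit gene Ppp3ca carried the most H4K5ac. It spans 267.604 kb of chromosome 3 (136333088 to 136600691) and held 0.905 RPKM of H4K5ac-ChIP, 0.364 of IgG-IP and 0.443 of input in FC, and 0.911, 0.423 and 0.497 in CON. These values rest on 7656 and 8764 H4K5ac-ChIP reads, the most of any of the genes, and the density was nearly even along the gene. From the first to the last equal part of its length, cut into 3, it was 0.882, 0.886 and 0.947 RPKM in FC and 0.909, 0.867 and 0.956 in CON. Ppp3cb, the gene of the other catalytic subunit expressed in brain, lies on chromosome 14 (21318586 to 21365795) and held 0.461, 0.363 and 0.247 RPKM in FC and 0.591, 0.361 and 0.355 in CON. Ppp3r1 encodes the calcium-binding regulatory subunit calcineurin B, on chromosome 11 (17059266 to 17100378), and held 0.586, 0.413 and 0.405 RPKM in FC and 0.626, 0.416 and 0.412 in CON. The gene Wdr92 covers 44.4% of its body. Ppp3ca exceeded Ppp3cb in H4K5ac-ChIP by 1.96-fold in FC (1.82 to 2.13) and 1.54-fold in CON (1.44 to 1.65), with IgG-IP ratios of 1.01 and 1.17 and input ratios of 1.79 and 1.40.

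Relative to IgG-IP, H4K5ac-ChIP was higher in the gene body of all 10 genes in both groups, with every interval above 0 on the log2 scale, and the same was so relative to input. The ratio reached 2-fold in 5 genes in FC (Ppp1ca, Ppp1r1b, Ppp1cc, Ppp1r9b and Ppp3ca), where 32.5% of all annotated genes with enough reads did, and in 6 in CON, the same 5 and Ppp1r1a, where 24.8% did. The median log2 ratio of the 10 was 1.14 in FC and 1.11 in CON, beside 0.64 and 0.54 for all annotated genes. In log2 values for FC and CON, the ratio was 1.82 (0.99 to 2.78) and 2.50 for Ppp1ca, 1.82 (1.39 to 2.27) and 2.29 for Ppp1r1b, 1.64 and 1.17 for Ppp1cc, and 1.62 and 1.55 for Ppp1r9b. It was 1.31 (1.23 to 1.40) and 1.11 for Ppp3ca and 0.97 and 1.11 for Ppp1r1a, the latter just on either side of 2-fold. The other 4 genes, Ppp1cb, Ppp1r9a, Ppp3r1 and Ppp3cb, lay between 0.35 and 0.71 over IgG-IP, near the median of all genes in that ratio. Counted only on bases outside other genes, the ratio in CON was 2.95 for Ppp1r1b, and that of Ppp3r1 was 0.20 in FC and 0.36 in CON.

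**Figure D2:**
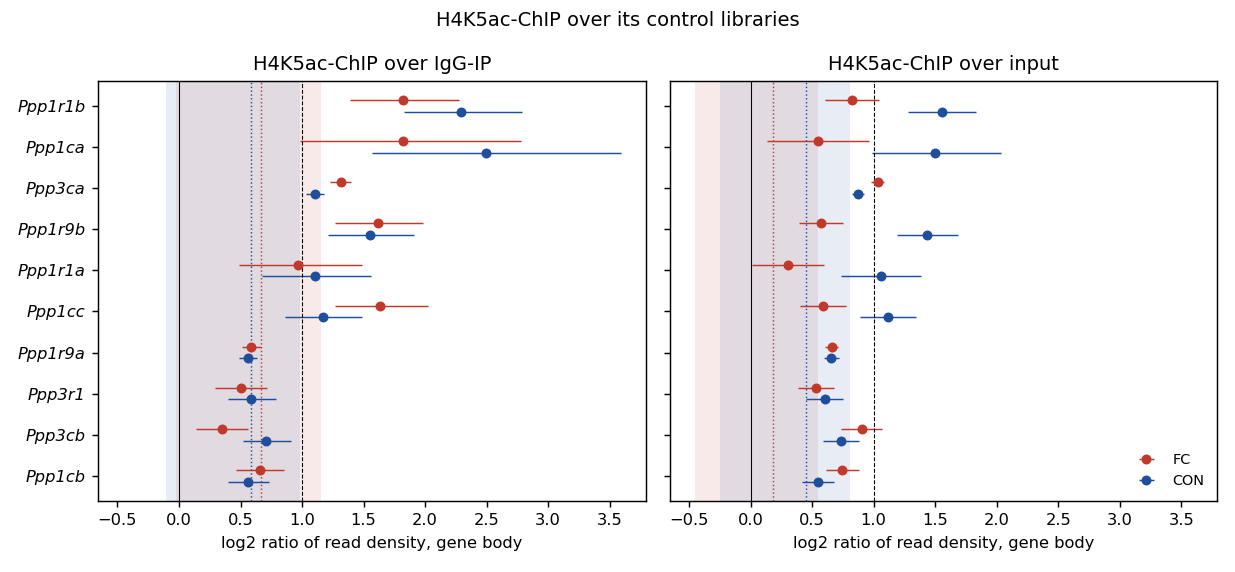
log2 ratio of H4K5ac-ChIP read density in the gene body over IgG-IP (left) and over input (right) in FC (red) and CON (blue), with exact 95% intervals from 1 library pair each; shaded bands and dotted lines are the middle 50% and the median of protein-coding genes, and the dashed line marks 2-fold. All 10 genes lie above 0, and the values over input are lower in FC than in CON for the 5 GC-rich genes.

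The genes at 2-fold or more included the GC-rich members Ppp1ca, Ppp1cc, Ppp1r1b and Ppp1r9b, of 49.0% to 57.2% GC, and the enrichment was therefore set beside protein-coding genes of the same GC content in steps of 1%. In CON all 10 genes were above the median of their GC step, at percentiles 60.8 to 98.1. In FC 9 were, at percentiles up to 98.8, and Ppp1r1a was at percentile 38.8. Ppp3ca, at 40.9% GC, stood highest in FC (1.31 against a median of 0.22 for 1180 genes) and at percentile 97.4 in CON. Over input, 1 gene reached 2-fold in FC (Ppp3ca, 1.03, with 0.87 in CON), where 5.76% of all annotated genes did, and 5 in CON (Ppp1ca, Ppp1cc, Ppp1r1a, Ppp1r1b and Ppp1r9b), where 15.1% did. In CON, Ppp3ca was at percentile 79.2 of protein-coding genes over input and 80.9 over IgG-IP, with 5 of the 10 genes above it in each. In FC the place of the GC-rich genes depended on the control library.

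In the promoter, taken as the 5 kb upstream of the TSS, the H4K5ac-ChIP reads of each of the 10 genes exceeded 50 in both groups, as did those of 65.0% of all annotated genes in FC and 68.1% in CON. H4K5ac-ChIP over IgG-IP reached 2-fold in 6 of the 10 in FC (background 29.9%) and in 7 in CON (background 24.2%). Over input, 4 reached it in FC (background 7.88%) and 6 in CON (background 16.1%). Among protein-coding genes alone, the shares over IgG-IP were 35.5% in FC and 28.9% in CON, and those over input 8.93% and 19.2%. The median log2 ratio over IgG-IP was 1.13 and 1.28, beside 0.47 and 0.39 for all annotated genes and 0.67 and 0.57 for protein-coding genes. Set beside promoters of the same GC content, 7 of the 10 were above the median in FC and 10 in CON. Those under it in FC were Ppp1r1a, Ppp3ca and Ppp3r1, at percentiles 47.6, 49.5 and 28.6. Ppp1ca, Ppp1cb, Ppp1cc, Ppp1r1a, Ppp1r1b and Ppp1r9b reached 2-fold over IgG-IP in both groups, and Ppp3ca in CON. For Ppp1r1a in FC the value was close to 2-fold (1.04, 0.41 to 1.73). It fell under 2-fold with 1 read per position and strand (0.82) and with a promoter of 2 kb (0.61). The promoter of 2 kb put Ppp3ca and Ppp3cb past 2-fold in FC, at 1.59 and 1.57 in place of 0.83 and 0.74. With it 7 of the 10 genes reached 2-fold in FC. Over input, every interval in CON lay above 0, while in FC those of Ppp1r1a (0.08, -0.28 to 0.44) and Ppp3cb (0.39, -0.01 to 0.78) included 0.

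The promoter of spinophilin, Ppp1r9b, had the strongest signal. It held 313 H4K5ac-ChIP, 15 IgG-IP and 158 input reads in FC, and 274, 32 and 77 in CON. Its density of 1.98 RPKM in FC and 1.52 in CON was at percentiles 99.9 and 99.8 of protein-coding promoters. Relative to IgG-IP the log2 ratio stood at 3.26 (2.52 to 4.12) for FC and 1.97 (1.44 to 2.55) for CON, and relative to input at 1.52 (1.24 to 1.80) and 1.81 (1.44 to 2.20). The groups were in one order against IgG-IP and in the other against input, and the few IgG-IP reads in FC (0.206 RPKM, percentile 9.74) enter the first. Against its paralogue Ppp1r9a, whose promoter held 116 and 115 H4K5ac-ChIP reads, the density was 2.70-fold higher in FC (2.17 to 3.37) and 2.38-fold in CON (1.91 to 2.99). The same ratio in input was 1.50 in FC (1.17 to 1.94) and 0.917 in CON (0.664 to 1.26). In IgG-IP it was 0.469 (0.236 to 0.891) and 1.10 (0.647 to 1.89).

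The promoter of Ppp1ca followed, with 219 H4K5ac-ChIP, 21 IgG-IP and 114 input reads in FC and 230, 23 and 82 in CON. Its log2 ratio to IgG-IP stood at 2.26 (1.62 to 2.98) for FC and, much alike, at 2.20 (1.58 to 2.88) for CON. The gene Tbc1d10c covers 3890 of the 5000 bp, and the reads of the 2 genes cannot be told apart there. The promoter of Ppp3cb lies wholly within 1810062O18Rik and in part within Usp54, and held 105 and 150 H4K5ac-ChIP reads. The lowest ratio over IgG-IP in FC was that of Ppp3r1 (104 reads against 39, 0.30, -0.25 to 0.87), the only one of the 20 intervals over IgG-IP that included 0. In CON the same promoter had 127 against 30 reads (0.96).

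Around the TSS the reads of the 10 genes were summed by distance. They were set beside 22144 protein-coding genes, without those with the most input reads within 2 kb of the TSS. H4K5ac-ChIP over IgG-IP was above the value of these protein-coding genes in each of 5 zones in both groups. From 2 to 0.5 kb upstream the log2 ratio stood at 1.41 (1.11 to 1.72) for FC and 1.95 (1.62 to 2.29) for CON, beside 0.84 and 0.74 for protein-coding genes. The H4K5ac-ChIP density there was nearly the same in FC and CON (1.31 and 1.29 RPKM). That of IgG-IP was 0.490 and 0.336, from 107 and 83 reads, and that of input 0.584 and 0.441. Within 0.5 kb of the TSS the log2 ratio over IgG-IP was 2.06 (1.48 to 2.71) and 1.66 (1.09 to 2.28), beside 1.19 and 0.87. From 2 to 5 kb downstream it was 1.30 and 1.26, beside 0.54 and 0.46. The density itself fell at the TSS in all libraries, input included, so the dip in H4K5ac-ChIP was shared by unprecipitated chromatin.

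**Figure D3:**
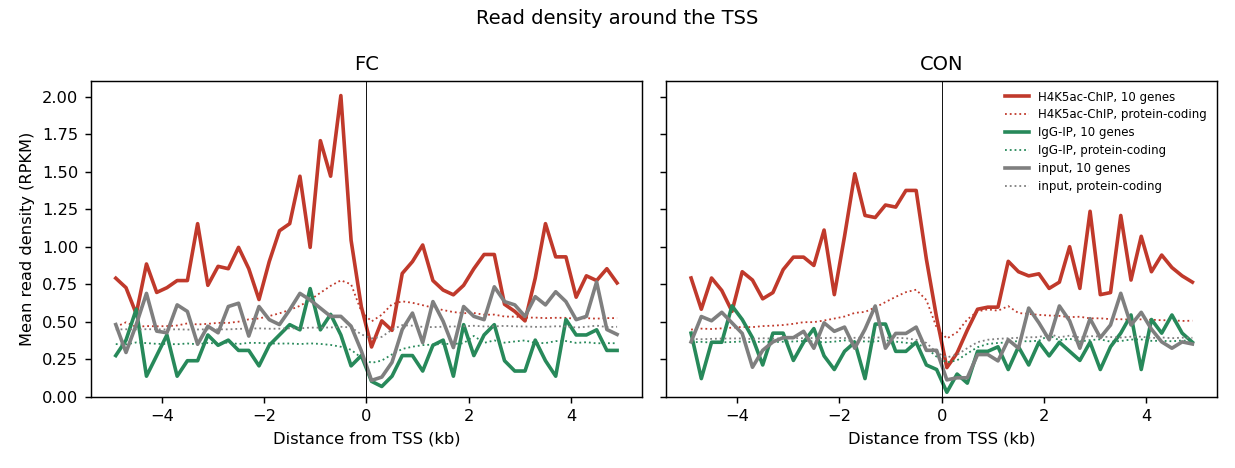
Mean read density (RPKM) in bins of 200 bp by distance from the TSS (kb) in FC and CON. Solid lines are the 10 genes and colours give the antibody. Dotted lines are 22144 protein-coding genes, without those with the most input reads within 2 kb of the TSS. H4K5ac-ChIP of the 10 genes is highest within 2 kb upstream of the TSS, and all 3 kinds of library dip at the TSS.

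In windows of 1 kb from 5 kb before to 5 kb past each gene, the densest H4K5ac-ChIP window lay just upstream of the TSS for Ppp1cb in both groups (58 reads against 7 of IgG-IP in FC, 64 against 10 in CON). For Ppp1ca it was the first 1 kb upstream in FC (69 against 6), outside annotated genes, and the next one in CON (55 against 4), which lies in Tbc1d10c with its nearest TSS that of Tbc1d10c. For Ppp3cb it was within 2 kb upstream in both groups (34 against 7 and 41 against 5), inside 1810062O18Rik. For Ppp1r1b it lay 13 to 14 kb from the TSS in both groups, past the end of the gene and inside the neighbour Stard3 (65 against 4 and 70 against 7). These windows in other genes cannot be assigned to Ppp1ca, Ppp3cb or Ppp1r1b. For Ppp1cc, Ppp1r1a and Ppp3r1 the densest window differed in place between FC and CON. That of Ppp1r1a in FC lay in an exon of Pde1b, and that of Ppp3r1 in FC lay where Wdr92 overlaps Ppp3r1. Neither can be assigned to Ppp1r1a or Ppp3r1 alone.

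The densest stretches of 2 genes, inside Ppp3ca and upstream of Ppp1r9b, are described in more detail. In Ppp3ca the window 163 to 164 kb into the gene held 75 H4K5ac-ChIP, 6 IgG-IP and 34 input reads in FC and 67, 2 and 15 in CON, the highest of its 278 windows in each group. It lies in an intron, upstream of a further annotated TSS of Ppp3ca. Upstream of Ppp1r9b the densest window was 4 to 3 kb before the TSS in FC (80 H4K5ac-ChIP, 3 IgG-IP and 27 input reads) and 3 to 2 kb before it in CON (73, 8 and 19). The 300 bp with the most pooled H4K5ac-ChIP reads in each stretch are printed here, since they are where the signal of these genes was most concentrated; capitals mark CpG.
Ppp3ca, chr3:136496138-136496437, plus strand: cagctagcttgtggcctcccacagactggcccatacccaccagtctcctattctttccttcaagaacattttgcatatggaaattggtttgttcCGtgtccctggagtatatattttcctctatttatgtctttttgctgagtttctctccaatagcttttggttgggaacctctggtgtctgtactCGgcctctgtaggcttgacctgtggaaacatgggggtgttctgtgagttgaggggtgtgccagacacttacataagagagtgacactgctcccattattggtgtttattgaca
Ppp1r9b, chr11:94849099-94849398, plus strand: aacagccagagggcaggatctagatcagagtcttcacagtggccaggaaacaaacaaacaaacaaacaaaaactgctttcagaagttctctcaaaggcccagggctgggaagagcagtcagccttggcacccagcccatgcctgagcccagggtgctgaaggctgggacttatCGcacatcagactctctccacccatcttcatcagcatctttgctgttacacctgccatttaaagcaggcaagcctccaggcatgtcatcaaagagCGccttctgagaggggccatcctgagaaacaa
The first overlaps no annotated exon and starts 163.05 kb after the TSS and 1.52 kb upstream of the other annotated start. It held 27 H4K5ac-ChIP reads in each group, against 0 and 1 of IgG-IP and 9 and 7 of input in FC and CON. The second, from -3.25 to -2.95 kb relative to the TSS of Ppp1r9b and outside annotated exons, held 33 and 28 H4K5ac-ChIP reads, against 1 and 2 of IgG-IP and 8 and 3 of input. Both have 2 CpG, with observed over expected CpG of 0.13 and 0.10, well under the 0.75 and 0.80 of the 250 bp before the TSS of the same genes. The stretches were chosen for their H4K5ac-ChIP reads, so these counts describe them and test nothing.

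**Figure D4:**
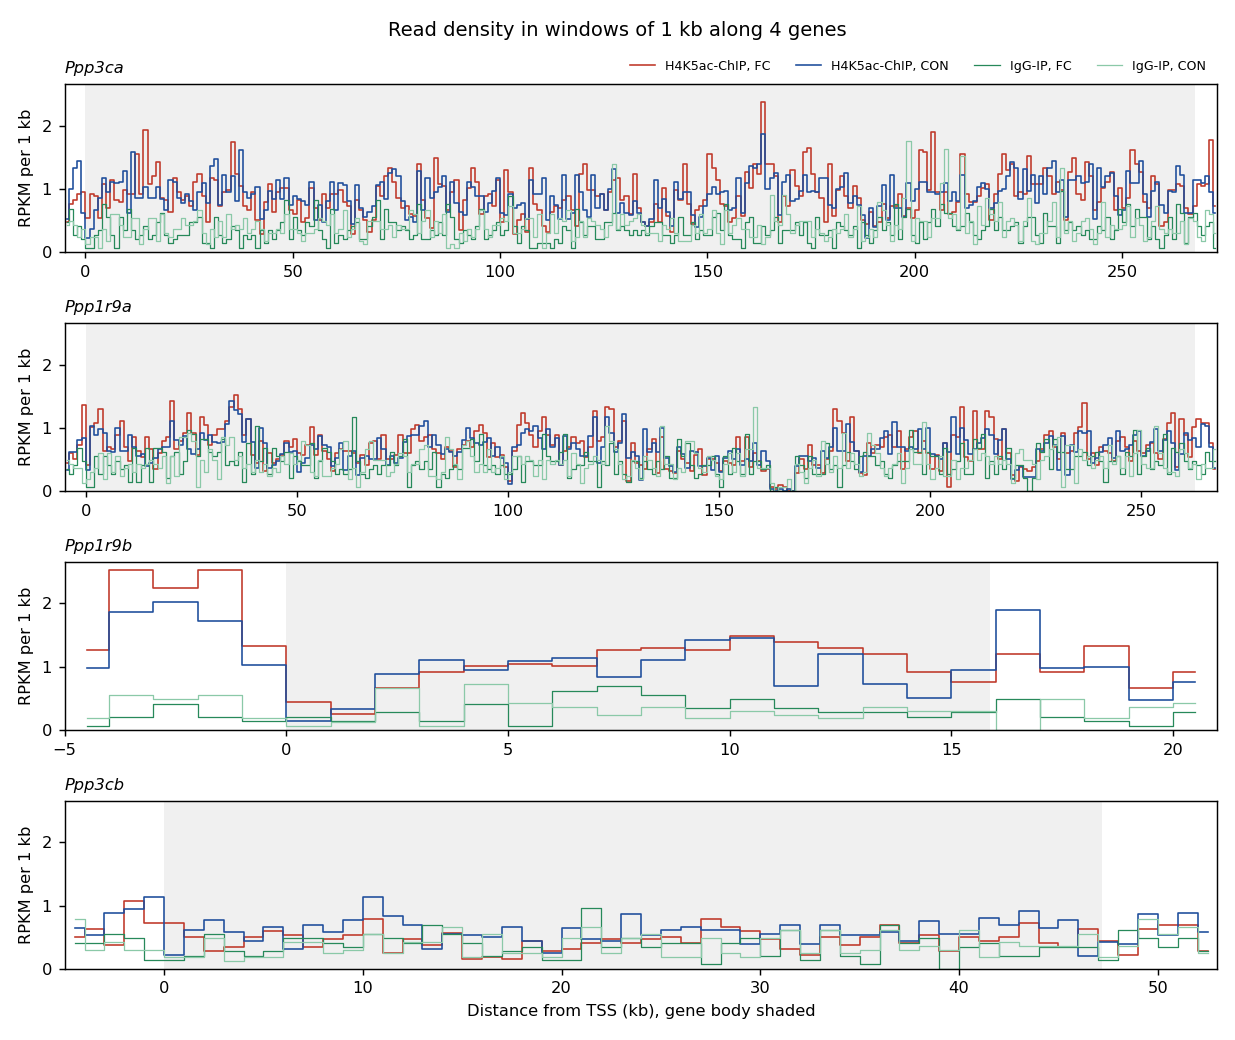
H4K5ac-ChIP and IgG-IP read density (RPKM) in windows of 1 kb by distance from the TSS (kb) for Ppp3ca, Ppp1r9a, Ppp1r9b and Ppp3cb, with the gene body shaded, in FC and CON. The highest windows are at 163 to 164 kb in Ppp3ca and before the TSS in Ppp1r9b, and Ppp3cb has the lowest H4K5ac-ChIP densities of these 4 genes over the gene body (0.461 RPKM in FC and 0.591 in CON, with 0.363 and 0.361 in IgG-IP).

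Along Ppp1r9a the densest windows were neighbours in FC and CON, at 35 to 36 kb (48 reads against 6 of IgG-IP) and 34 to 35 kb (51 against 14). The gene also has a gap from 162 to 168 kb, where no window of 1 kb held more than 5 reads in any of the 6 libraries, input included. The build has no unknown bases there, and the stretch lacked reads in every library alike.

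Fear-conditioned and control libraries were then compared for each gene, and genes were counted past a log2 ratio of 0.32 in either direction. In the gene body 0 genes were past it higher in FC (background 15.9%) and 1 was past it lower, Ppp3cb (background 8.25%). The median log2 FC over CON ratio of H4K5ac-ChIP was -0.05 for the 10 genes and 0.05 for all annotated genes. Both counts are near the background shares, and 8 of the 10 intervals included 0.

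The body of Ppp3cb took 688 reads of the FC and 1003 of the CON H4K5ac-ChIP library, 249 and 281 of IgG-IP, and 532 and 595 of input. In H4K5ac-ChIP the log2 ratio was -0.36 (-0.50 to -0.22), in IgG-IP 0.01 (-0.25 to 0.26) and in input -0.53 (-0.70 to -0.35). The input thus differed between the groups by more than H4K5ac-ChIP did, and with the input ratio taken off the sign turned (0.17). Genes of the same GC content (35%) had a median of -0.13 in H4K5ac-ChIP, and less that median the value for Ppp3cb was -0.23, no longer past 0.32. Ppp1r1a was then the gene past it, at -0.38 (background 9.81%), so the count stayed at 1 with another gene. Ppp1cb was the other gene whose interval lay below 0 (-0.17, -0.30 to -0.05), with -0.27 (-0.50 to -0.04) in IgG-IP and -0.37 (-0.51 to -0.23) in input, lower in FC in all 3 kinds of library.

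The large genes gave the narrowest intervals. For Ppp3ca the H4K5ac-ChIP ratio was -0.01 (-0.05 to 0.04) and for Ppp1r9a 0.04 (-0.01 to 0.09) in these 2 libraries. The IgG-IP and input ratios of Ppp3ca were -0.21 and -0.17, and those of Ppp1r9a 0.01 and 0.04. Less the IgG-IP or the input ratio, Ppp3ca was at 0.21 or 0.16 and Ppp1r9a at 0.03 or 0.00. No interval was computed for these differences, which also carry the counting error of the control libraries. Ppp1r9b had 0.17 (-0.01 to 0.35) in H4K5ac-ChIP beside 1.03 (0.79 to 1.28) in input, and Ppp1r1a -0.26 (-0.54 to 0.02) beside 0.50. Input differed far more than H4K5ac-ChIP for all 5 GC-rich genes, at 0.50 to 1.03.

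**Figure D5:**
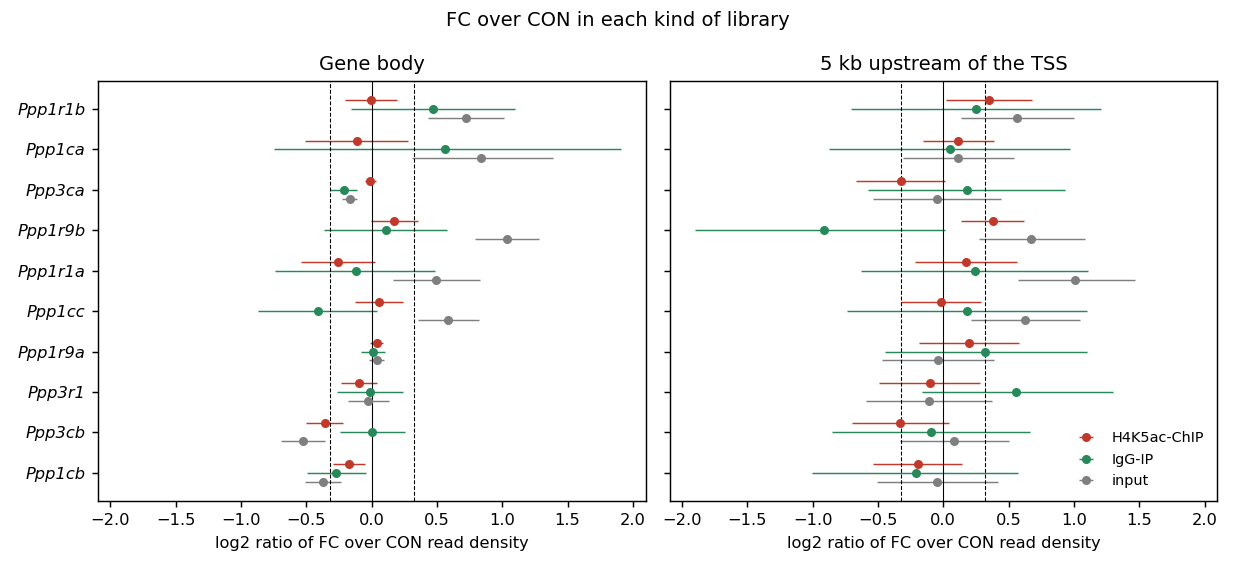
log2 ratio of FC over CON read density in the gene body (left) and the 5 kb upstream of the TSS (right) for H4K5ac-ChIP, IgG-IP and input, with exact 95% intervals from 1 library per group; dashed lines mark the log2 ratio of 0.32 in either direction. In the gene body, H4K5ac-ChIP of Ppp3cb lies past the line with its input further out, and the input of the GC-rich genes lies to the right. In the promoter the input of Ppp1ca is at 0.11 (-0.31 to 0.54).

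In the promoter 2 genes were past 0.32 higher in FC (background 18.7%) and 2 lower (background 12.8%), shares near those of all annotated genes. The higher ones were Ppp1r9b, at 0.38 (0.14 to 0.62), and Ppp1r1b, with 166 reads in FC and 148 in CON, at 0.35 (0.02 to 0.68). Their input ratios were 0.67 and 0.56, larger than those of H4K5ac-ChIP, and their IgG-IP ratios -0.91 (-1.90 to 0.01) and 0.25 (-0.70 to 1.21). The lower ones were both calcineurin catalytic genes, Ppp3ca with 124 reads in FC and 177 in CON (-0.33, -0.67 to 0.01) and Ppp3cb with 105 and 150 (-0.33, -0.70 to 0.04). Both intervals included 0, and with 1 read per position and strand neither was past 0.32. Their input ratios were -0.05 and 0.08, and less the median at equal GC content the H4K5ac-ChIP values were -0.39 and -0.34. Less the IgG-IP ratio, Ppp3ca was at -0.51 and Ppp3cb at -0.24, the latter no longer past 0.32.

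A scan of the genome in windows of 300 bp, which compares the 2 H4K5ac-ChIP libraries and not the conditions, placed regions denser in FC in 2.37% of all annotated genes or their promoters and regions denser in CON in 1.62%. Among the 10 genes 1 was touched in each direction. The region denser in FC lay 14.214 kb into Ppp1cc (chr5:122622301-122622700, 26 reads in FC and 15 in CON, counted once per position and strand). The region denser in CON lay 2.458 kb into Ppp1r1b (chr11:98212001-98212350, 11 and 31 reads), where 1700003D09Rik overlaps the gene. The same stretches were also counted with all reads and without the move of reads by 75 bp that the scan used. H4K5ac-ChIP then held 26 in FC and 20 in CON in the region of Ppp1cc. The log2 ratio was then 0.56 (-0.33 to 1.48), an interval that included 0. In the region of Ppp1r1b it held 10 and 34 (-1.58, -2.76 to -0.53). Counted in this way, the input held 12 reads in FC and 7 in CON in the region of Ppp1cc. It held 13 and 6 in that of Ppp1r1b, and IgG-IP held at most 2 in either group. A scan with all reads and the move kept still placed a region denser in FC in Ppp1cc (chr5:122622301-122622650). That region held 26 reads in FC and 12 in CON, with a log2 ratio of 1.30 (0.26 to 2.42). Neither gene as a whole was past 0.32 between the groups in the gene body (0.06 for Ppp1cc and 0.00 for Ppp1r1b).

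A wider list of 32 other genes of PP1 and calcineurin regulation was described in the same way, 2 of which (Chp1 and Chp2) were matched through older symbols. H4K5ac-ChIP over IgG-IP in the gene body reached 2-fold in 13 of them in FC (background 32.5%) and 10 in CON (background 24.8%), with medians of 0.94 and 0.81 on the log2 scale, lower than the 1.14 and 1.11 of the 10 genes. Highest in FC were Ppp1r16b (2.08) and Ppp1r16a (1.88), which encode membrane-bound targeting subunits of PP1, and lowest were Ppp1r3b (-0.62) and Ppp1r3c (0.03), which bring PP1 to glycogen, while the third gene of that kind on the list, Ppp1r3d, stood at 1.56. Between FC and CON 3 of the 32 were past 0.32 higher on the log2 scale (background 15.9%), Ppp1r11, Ppp1r14a and Ppp1r14b, each at 0.33, and 0 were lower (background 8.25%). Each of the 3 encodes an inhibitor of PP1, but other inhibitor genes were not past 0.32. On the same list these were Ppp1r2 (-0.15), Ppp1r8 (-0.05), Ppp1r10 (0.13) and Ppp1r14c (-0.12). Among the 10 genes they were Ppp1r1a (-0.26) and Ppp1r1b (-0.004). The input ratios of Ppp1r11, Ppp1r14a and Ppp1r14b were 0.41, 0.68 and 1.03, all larger than their H4K5ac-ChIP ratios.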

How the data were processed

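The authors prepared chromatin of the hippocampus for H4K5ac-ChIP, IgG-IP and input, obtained SOLiD reads of 50 bp, placed them on mm9 with Bioscope 1.2.1 and deposited the alignments as BED lines, 1 line per read and without normalization. The score in each deposited line is the mapping quality of the read, from 4 to 100, and is neither a count nor a signal. Samples were grouped by their labels.

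Reads overlapping a gene body or the 5 kb upstream of its TSS (GENCODE annotation of NCBI build 37, 37273 genes, 22367 of them protein-coding, mitochondrial genes left out) were counted with Python 3.11.15, NumPy 2.4.6 and SciPy 1.17.1 and given as RPKM with exact Poisson intervals. Ratios of densities have exact Clopper-Pearson intervals of 95%. A ratio was counted over all genes with at least 10 reads in both libraries together. For the region scan, repeats of a position and strand were dropped and the rest moved by 75 bp towards the fragment's middle. It stepped windows of 300 bp by 50 bp and used a one-sided Poisson threshold of 1e-05. The expected rate was the highest of the other library's rates over 1, 5 and 10 kb and over the genome, scaled for depth. Counting, ratios and the scan were tested on simulated data.

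All 10 genes are named. Of the wider list, the 2 highest and 2 lowest over IgG-IP in FC and those past a log2 ratio of 0.32 between groups are named. Genes of the same kinds are named beside them. The genes, the marker lists and the wider list were chosen with earlier results of these data known. Depth was 14549689 to 45673239 reads per library. The alternatives tried were input in place of IgG-IP, 1 read per position and strand, a mapping quality of at least 20, a promoter of 2 kb, 2 kb on either side of the TSS, bases outside other genes, another scaling, and FC over CON less the input ratio, the IgG-IP ratio or the median at equal GC content.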

Additional observations from a re-analysis of the deposited data

How the results depend on the processing

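No paired analysis was possible because each group and antibody had 1 library, and leaving out a replicate was not possible for the same reason. Shares of all annotated genes under the same alternative are given in brackets. Measured against input, 1 gene was at 2-fold or more in the gene body in FC (5.76%). For FC over CON in the gene body, 1 gene was higher less the IgG-IP ratio, Ppp1cc (27.9%). The lower genes were 5 less the input ratio (42.7%), namely Ppp1ca (-0.95), Ppp1r9b (-0.86), Ppp1r1a (-0.75), Ppp1r1b (-0.73) and Ppp1cc (-0.53). They were 3 less the IgG-IP ratio, Ppp1ca, Ppp1r1b and Ppp3cb (13.7%), and 2 past a log2 ratio of 0.20, Ppp1r1a and Ppp3cb (14%). In the promoter, the higher genes were 0 less the input ratio (21.5%), 0 less the median at equal GC content (15.5%), 1 less the IgG-IP ratio, Ppp1r9b (34.9%), and 1 with 1 read per position and strand, Ppp1r1b (17.3%), with which 0 were lower (11.1%). Less the input ratio the lower genes there were 3, Ppp1cc, Ppp1r1a and Ppp3cb (37.1%), and less the IgG-IP ratio they were 2, Ppp3ca and Ppp3r1 (22.8%). Of the ratios past 0.32, 3 changed sign, all less the input ratio: Ppp3cb in the gene body (0.17) and Ppp1r1b (-0.21) and Ppp1r9b (-0.29) in the promoter. Counting ratios of any size, 20 of 120 FC over CON values under an alternative changed sign, 9 less the input ratio, 5 less the IgG-IP ratio, 4 at equal GC content and 2 with 1 read per position and strand. Of the 220 values of H4K5ac-ChIP over a control library under an alternative, 40 of them over input, 0 did. The main values were all above 0, and an unchanged sign does not show how far a value moved. In the FC gene body, Ppp1ca stood at 1.82 over IgG-IP and 0.55 over input, and Ppp3cb at 0.35 and 0.90. Regions that the scan called denser in FC touched 5 genes at a threshold of 1e-04 (7.62%), 2 with no shift (2.29%) and 5 with all deposited reads (14.6%), and those called denser in CON 2 (5.83%), 2 (1.47%) and 4 (7.45%). Not all of these regions differed beyond counting error when the same bases were compared. That of Ppp1ca at 1e-04 held 27 reads in FC and 22 in CON (-0.34 to 1.41). That of Ppp3ca with no shift held 15 and 27 (-1.63 to 0.35). The cause of the changes under the alternatives was not tested. Depth limits the IgG-IP values most, with 10 to 53 reads on the bodies of Ppp1ca, Ppp1r1a and Ppp1r1b.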

Other observations

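IgG-IP was not the same as input over these genes. In the FC gene bodies the log2 ratio of IgG-IP over input ran from -1.28 in Ppp1ca to 0.56 in Ppp3cb, and 6 of the 10 intervals lay below 0. In CON it was highest in Ppp1r9a (0.10) and lowest in Ppp1ca, where IgG-IP had 0.501 of the input density, with 2 intervals below 0, those of Ppp1r1b and Ppp3ca. In the FC promoter of Ppp1r9b it was -1.75 (-2.62 to -0.98), at percentile 1.03 of protein-coding promoters, and in CON -0.16 (-0.80 to 0.45).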
